A study of Homo sapiens with 6 samples.

Results

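The genes of the proteasome were followed in MDA-MB-231 cells treated with an inhibitor of histone deacetylases. A gene was taken as a member when its current symbol was PSMA, PSMB, PSMC, PSMD, PSME, PSMF or PSMG followed by a number, which gave 47 of the 16623 genes listed. PSMA8 was not analysed here. MDA-MB-231 is an established human line of triple-negative breast cancer, a tumour type without estrogen receptor, progesterone receptor and HER2 amplification. The cells received PCI-24781 at 100 nM or 200 nM, or the solvent DMSO, for 24 h or 48 h, and their mRNA was sequenced. There was 1 library for each of the 6 conditions, from 1 cell line, so no difference has a replicate check and no p-value is given. Levels are FPKM, the number of fragments per kilobase of transcript scaled to the mapped fragments of the library, a unit that allows genes of different length to be compared.

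The proteasome is the protease that degrades ubiquitin-tagged proteins in the cytosol and nucleus. Its barrel-shaped core is built of outer rings of alpha subunits (PSMA genes) and inner rings of beta subunits (PSMB genes), and only the beta subunits PSMB5, PSMB6 and PSMB7 cut peptide bonds. A regulatory cap binds to the end of the barrel, where a ring of ATPases (PSMC genes) unfolds the substrate and threads it into the core, and non-ATPase subunits (PSMD genes) recognise ubiquitin and remove it. Interferon-gamma induces PSMB8, PSMB9 and PSMB10, which replace PSMB5, PSMB6 and PSMB7 in newly built particles called immunoproteasomes and change the peptides offered to T cells on class I molecules. Other activators (PSME genes) open the barrel in place of the cap, and dedicated chaperones (PSMG genes and some PSMD genes) assemble the particle.

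The depth was about 15600000 to 18000000 fragments per library, estimated from the smallest steps of the values. The line's mesenchymal marker VIM stood at 1629 to 2053 FPKM, while ESR1 did not exceed 0.04 FPKM and PGR did not exceed 0.03 FPKM. Of the epithelial markers, CDH1 stood at 0.24 to 0.39 FPKM, but EPCAM, taken to be low in this line, stood at 2.26 to 4.70 FPKM. The leukocyte marker PTPRC was listed at 0.76 to 1.01 FPKM and the endothelial marker PECAM1 at 0.38 to 2.33 FPKM, so neither was at 0. A difference is given as the log2 ratio of FPKM + 1, which understates the difference of a gene with a low level. It was called at 2-fold where the gene reached 1 FPKM in either library, and counts of genes that were at least 20% lower or 25% higher in FPKM + 1 are given as well. The DMSO libraries were not alike: over all genes, 286 of 11490 were called higher and 15 lower in DMSO at 48 h than in DMSO at 24 h. Against DMSO of the same time, 155 were called higher and 15 lower at 100 nM, and 523 higher and 172 lower at 200 nM, at 24 h. At 48 h, 7 were called higher and 47 lower for 100 nM, and 24 higher and 7 lower for 200 nM. Both PCI-24781 libraries of a time share 1 DMSO library, so their differences are not independent.

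The gene with the largest difference was PSMB10, the immunoproteasome subunit that takes the place of PSMB7. It lies on chromosome 16 (Gene ID 5699, hg19, chr16:67968407-67970780, minus strand). Its promoter is shown because it carries a match to the interferon-stimulated response element, searched on both strands as a pair of GAAA with any 2 bases between, that other members share. The 250 bases before its start in the RefSeq table (GRCh38.p14, chr16:67936851-67937100, minus strand) read as follows, with the match in capitals.
PSMB10: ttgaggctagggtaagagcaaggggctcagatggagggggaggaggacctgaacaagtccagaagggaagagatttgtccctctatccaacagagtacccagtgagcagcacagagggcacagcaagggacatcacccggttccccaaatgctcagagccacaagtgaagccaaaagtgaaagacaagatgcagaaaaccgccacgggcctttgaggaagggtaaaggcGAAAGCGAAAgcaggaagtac

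PSMB10 stood at 8.72 FPKM in DMSO, 3.24 FPKM at 100 nM and 0.98 FPKM at 200 nM after 24 h. After 48 h it stood at 7.18 FPKM in DMSO, 8.35 FPKM at 100 nM and 2.59 FPKM at 200 nM. The library at 100 nM for 48 h was thus as high as the DMSO libraries, and whether that reflects the treatment or the culture or label of the 1 library cannot be told apart. In contrast, the other 3 treated libraries lay below both DMSO libraries. At 24 h the log2 difference from DMSO was -1.20 for 100 nM and -2.30 for 200 nM. At 48 h the respective differences were 0.19 and -1.19.

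Among all genes tested, PSMB10 ranked 6th from the lowest of 11660 at 200 nM for 24 h and 2nd from the lowest of 11665 at 200 nM for 48 h. It ranked 7th from the lowest of 11475 at 100 nM for 24 h, and 10136th of 11514 at 100 nM for 48 h. From 100 nM to 200 nM the log2 difference was -1.10 at 24 h and -1.38 at 48 h. The level at 200 nM was therefore lower than that at 100 nM by more than 2-fold at both times.

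The precision of these values was limited by few fragments. With a transcript of 1218 bases, the PSMB10 levels at 24 h correspond to about 189 fragments in DMSO, 68 at 100 nM and 20 at 200 nM. At 48 h they correspond to about 157, 183 and 49 fragments, in the same order. The plain FPKM ratio to DMSO at 200 nM was 0.112 at 24 h (95% interval 0.0658 to 0.175) and 0.361 at 48 h (95% interval 0.254 to 0.496). At 100 nM it was 0.372 at 24 h (95% interval 0.276 to 0.491) and 1.16 at 48 h (95% interval 0.931 to 1.44). These intervals treat the inferred fragments as counts and cover counting error only. They leave out the error of the estimated depth and transcript length, and differences between cultures.

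Whichever DMSO library served as reference, PSMB10 was lower at 200 nM. Set against the DMSO library of the other time, its log2 difference was -2.05 for the 24 h library and -1.44 for the 48 h library. At 100 nM for 24 h it was -0.95 against DMSO at 48 h, which is short of 2-fold in FPKM + 1. The plain levels, 3.24 FPKM and 7.18 FPKM, differed by more than 2-fold. Of the genes within 10 kb, CTRL was too low to compare, at 0.23 FPKM or less in every library. LCAT, SLC12A4 and PSKH1 did not share the pattern at 24 h. LCAT, which lies 3007 bases away, stood at 2.72 FPKM in DMSO and 2.55 FPKM at 200 nM for 24 h. SLC12A4 stood at 9.56 FPKM and 11.29 FPKM, and PSKH1 at 7.69 FPKM and 7.88 FPKM, in the same libraries. At 48 h LCAT stood at 2.41 FPKM in DMSO, 2.53 FPKM at 100 nM and 1.93 FPKM at 200 nM. This is the order of PSMB10 at 48 h, with a log2 difference of -0.22 at 200 nM beside -1.19 for PSMB10. In the same order, SLC12A4 stood at 9.92 FPKM, 10.25 FPKM and 11.68 FPKM, and PSKH1 at 6.63 FPKM, 8.55 FPKM and 7.88 FPKM.

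The other immunoproteasome subunits differed less from DMSO. PSMB8, the replacement for PSMB5, was measured at 26.83 FPKM in DMSO, 26.86 FPKM at 100 nM and 15.83 FPKM at 200 nM after 24 h. After 48 h it was measured at 30.50 FPKM, 29.31 FPKM and 26.09 FPKM, in the same order. Its log2 difference at 200 nM was -0.73 at 24 h and -0.22 at 48 h, so the 200 nM library at 24 h stood below the other 5. The FPKM ratio to DMSO in that library was 0.590 (95% interval 0.514 to 0.676, counting error only).

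PSMB9, the replacement for PSMB6, stood at 11.04 FPKM, 11.33 FPKM and 9.30 FPKM at 24 h in DMSO, 100 nM and 200 nM. At 48 h it stood at 13.57 FPKM, 13.38 FPKM and 11.37 FPKM. The log2 difference at 200 nM was -0.23 at 24 h and -0.24 at 48 h, and the counting intervals of both FPKM ratios (0.656 to 1.07 and 0.670 to 1.05) included 1. The files place PSMB8 and PSMB9 on alternative haplotype contigs of chromosome 6, and how fragments shared between copies of this region were assigned was not tested. PSMB11, the thymus-specific subunit, was listed at 0.03 FPKM in DMSO at 24 h and at 0 in the other 5 libraries, which leaves 46 members tested in every comparison.

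Among the constitutive catalytic genes, PSMB6 differed most. It stood at 97.09 FPKM, 71.20 FPKM and 61.26 FPKM at 24 h in DMSO, 100 nM and 200 nM, and at 82.43 FPKM, 80.85 FPKM and 65.85 FPKM at 48 h. All 4 treated libraries lay below both DMSO libraries, with log2 differences of -0.44 and -0.66 at 24 h and -0.03 and -0.32 at 48 h. PSMB5, the target of the proteasome inhibitor bortezomib, stood at 57.72 FPKM, 48.57 FPKM and 42.05 FPKM at 24 h and at 52.30 FPKM, 47.24 FPKM and 48.07 FPKM at 48 h. For this gene too all 4 treated libraries lay below both DMSO libraries, with log2 differences between -0.45 and -0.12.

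PSMB7 stood at 167.94 FPKM, 151.07 FPKM and 141.20 FPKM at 24 h and at 152.13 FPKM, 147.94 FPKM and 149.49 FPKM at 48 h. At 48 h its log2 difference from DMSO was -0.04 at 100 nM and -0.03 at 200 nM. The level of PSMB10 as a share of that of PSMB7, which it replaces, at 24 h amounted to 5.19% with DMSO, 2.14% with 100 nM and 0.694% with 200 nM. At 48 h the share was 4.72%, 5.64% and 1.73%. The share of PSMB8 in PSMB5 moved from 46.5% in DMSO to 37.6% at 200 nM at 24 h, and from 58.3% to 54.3% at 48 h. The share of PSMB9 in PSMB6 was 11.4% in DMSO and 15.2% at 200 nM at 24 h, and 16.5% and 17.3% at 48 h. Of the 3 pairs, only PSMB10 and PSMB7 thus differed by more than 2-fold in their ratio.

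**Figure D1:**
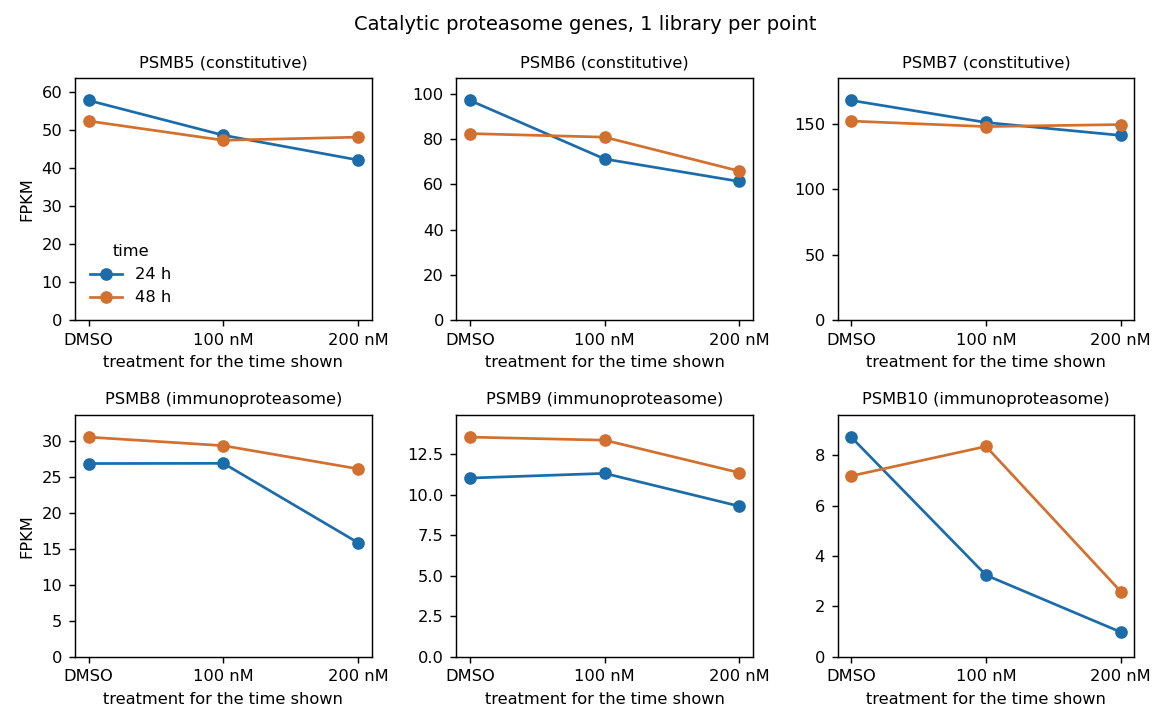
FPKM (vertical axis, from 0) of the 3 constitutive and the 3 interferon-induced catalytic subunit genes against treatment (horizontal axis), with 1 point per library and lines joining libraries of 24 h (blue) or 48 h (orange). PSMB10 went from 8.72 to 0.98 FPKM between DMSO and 200 nM at 24 h and from 7.18 to 2.59 FPKM at 48 h, while its level at 100 nM for 48 h was 8.35 FPKM.

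PSMB10 was the single member called at 2-fold against DMSO. It made up 1 of 46 members called lower at 100 nM for 24 h, where 0.131% of all genes tested were called lower, and 1 of 46 at 200 nM for 24 h, where the background was 1.48%. At 48 h no member was called lower at 100 nM (background 0.408%), and PSMB10 was the 1 member called lower at 200 nM (background 0.06%). No member was called higher at 2-fold in any of the 4 comparisons, against backgrounds of 1.35% and 4.49% at 24 h and 0.0608% and 0.206% at 48 h. From 100 nM to 200 nM, PSMB10 was again the 1 member called lower at 24 h (background 0.18%) and at 48 h (background 0.291%). None was called higher there, beside 0.343% and 1.71%.

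Smaller differences at 200 nM for 24 h lay mostly on the lower side among the proteasome genes. There, 16 of 46 members (34.8%) were lower by 20% or more, beside 20.3% of all genes tested, and 1 member was higher by 25% or more, beside 24.6%. At 100 nM for 24 h, 5 members (10.9%) were lower, beside 7.51%, and none was higher, beside 15.1%. At 48 h, 2 members (4.35%) were lower at 200 nM, beside 3.93%, and none was lower at 100 nM, beside 7.05%. None was higher by 25% or more at 48 h, where the backgrounds were 3.92% at 100 nM and 6.36% at 200 nM. The median log2 difference of the members was -0.10 at 100 nM and -0.18 at 200 nM at 24 h, and -0.03 and -0.09 at 48 h. Over all genes tested the 4 medians lay between -0.01 and 0.01. Most members lay above 10 FPKM in every library, unlike many of all genes tested. Of all genes with at least 10 FPKM in both libraries, 21.5% were lower and 17.2% higher at 200 nM for 24 h, with a median of -0.04. At 100 nM for 24 h, 7.06% of such genes were lower and 8.21% higher. At 48 h, 3.27% were lower and 2.95% higher at 100 nM, and 3.40% lower and 2.23% higher at 200 nM.

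The counts against DMSO at 24 h rest on the DMSO library of 24 h. Of the 46 members, 28 had their highest level of the 6 libraries in DMSO at 24 h, beside 26% of all genes tested. Between the DMSO libraries themselves, 11 members (23.9%) were lower by 20% or more at 48 h than at 24 h, beside 12.4% of all genes, and none was higher, beside 18.7%. Of all genes with at least 10 FPKM in both DMSO libraries, 13.8% were lower and 11.8% higher. No member passed 2-fold there in either direction (backgrounds 0.131% lower and 2.49% higher), and the median was -0.22. When the mean of both DMSO libraries served as reference, 9 members were lower by 20% or more at 200 nM for 24 h, beside 15.7% of all genes, and 9 at 200 nM for 48 h, beside 9.14%. Against the DMSO library of the other time, 6 members (13.0%) were lower, beside 15.0% of all genes, and 4 (8.70%) higher, beside 15.8%, at 200 nM for 24 h, with a median of 0.04. In that setting 21 members were lower at 200 nM for 48 h, beside 18.4% of all genes, with a median of -0.29. Treatment and the state of the single DMSO culture of 24 h cannot be told apart for these small differences.

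**Figure D2:**
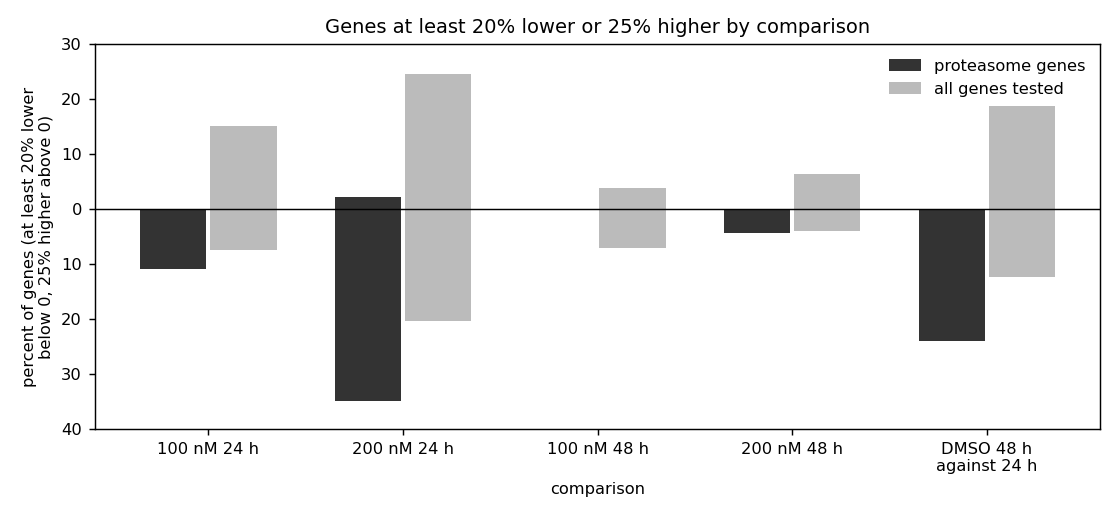
Percent of genes at least 20% lower (below 0) or 25% higher (above 0) in FPKM + 1 (vertical axis) in the 4 comparisons with DMSO of the same time and between the DMSO libraries, for the 46 proteasome genes (black) and for all genes tested (grey). At 200 nM for 24 h the black bar reaches 34.8% below 0 and the grey bar 20.3%, and a black bar of 23.9% also stands below 0 between the DMSO libraries.

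The order of doses was described within each time. At 24 h, 22 of 46 members (47.8%) were highest in DMSO, lower at 100 nM and lowest at 200 nM, beside 30.7% of all genes tested. The opposite order was found in 6 members (13.0%), beside 32.2%. At 48 h the falling order was found in 15 members (32.6%), beside 11.3%, and the rising order in 1 (2.17%), beside 10.2%. Below DMSO in all 4 comparisons, by any amount, were 15 of 46 members (32.6%), beside 11.3% of all genes, and above it in all 4 was 1 member (2.17%), beside 10.1%. That member was PSMG2, an assembly chaperone, which stood at 41.98 FPKM, 43.63 FPKM and 45.37 FPKM at 24 h and at 37.51 FPKM, 38.79 FPKM and 38.68 FPKM at 48 h. Its log2 differences were between 0.04 and 0.11. Without the library at 100 nM for 48 h, 23 members were below DMSO in each remaining comparison, beside 29.3% of all genes, and 3 (6.52%) were above, beside 30.9%.

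The 6 ATPase genes of the cap were lower together at 200 nM for 24 h. All 6 lay below DMSO, beside 5668 of 11660 over all genes tested. Of the 6, 4 were lower by 20% or more, beside 20.3% of all genes tested. The median log2 difference of the 6 was -0.49. PSMC3 stood at 127.03 FPKM, 100.46 FPKM and 79.53 FPKM at 24 h, with log2 differences of -0.34 and -0.67. At 48 h it stood at 100.58 FPKM, 92.78 FPKM and 90.66 FPKM, and the log2 difference at 200 nM was -0.15. PSMC2, the ATPase gene that differed least, stood at 39.45 FPKM, 36.41 FPKM and 35.23 FPKM at 24 h and at 33.83 FPKM, 33.61 FPKM and 35.05 FPKM at 48 h.

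The same genes were also lower in DMSO at 48 h than in DMSO at 24 h. Of the 6, 4 were lower by at least 20% between the DMSO libraries, beside 12.4% of all genes, with a median of -0.34. The summed level of the ATPase genes was 566 FPKM in DMSO, 489 FPKM at 100 nM and 405 FPKM at 200 nM at 24 h, and 430 FPKM, 424 FPKM and 397 FPKM at 48 h. The sum at 200 nM for 24 h thus lay below both DMSO sums, and nearer to that of 48 h. PSMC5 shares 261 bases with FTSJ3, and PSMC2 overlaps SLC26A5, PSMD1 HTR2B, PSME1 EMC9 and PSMG2 CEP76, each on the other strand, and whether strand was used in counting is not given in the sources used here.

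The 11 non-ATPase genes of the cap differed less. Their median log2 difference at 200 nM for 24 h was -0.04, and none was lower by 20% or more, beside 20.3% of all genes tested. The 1 member of all 46 that was higher by 25% or more, beside 24.6% of all genes tested, was PSMD3. PSMD3, a scaffold subunit of the lid, stood at 76.48 FPKM, 78.35 FPKM and 96.12 FPKM at 24 h, a log2 difference of 0.33 at 200 nM, and at 67.20 FPKM, 67.09 FPKM and 69.13 FPKM at 48 h. PSMD11, another lid subunit, had the lowest log2 difference of this group at 200 nM for 24 h, -0.27, with 45.93 FPKM in DMSO and 37.86 FPKM at 200 nM. It stood at 43.07 FPKM at 100 nM for 24 h, and at 35.39 FPKM, 33.48 FPKM and 33.91 FPKM at 48 h.

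PSMD14, the metalloprotease that removes ubiquitin chains from substrates, stood at 80.93 FPKM, 78.64 FPKM and 70.05 FPKM at 24 h and at 67.28 FPKM, 62.27 FPKM and 63.78 FPKM at 48 h. All 48 h libraries were below all 24 h libraries for this gene. PSMD2, a base subunit, had the highest level of all members in every library, from 258 FPKM at 200 nM for 48 h to 385 FPKM at 200 nM for 24 h. Between the DMSO libraries, all 11 non-ATPase genes were lower at 48 h, beside 5773 of 11490 over all genes tested, and their median was -0.26. By at least 20%, 2 of them were lower, beside 12.4% of all genes tested.

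**Figure D3:**
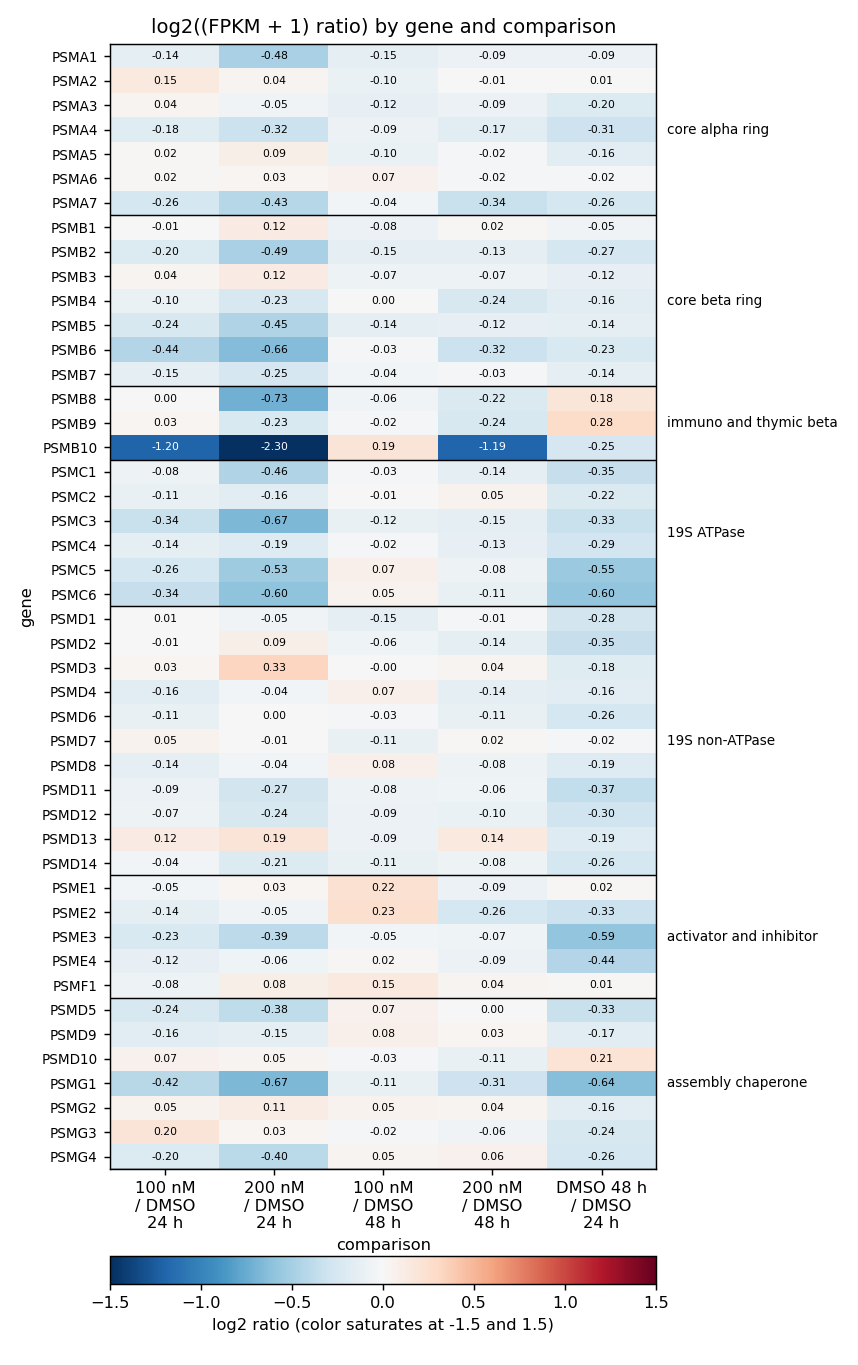
Log2 ratio of FPKM + 1 (color, saturating at 1.5 in either direction, with the value printed) of the 46 proteasome genes tested (rows, by role) in the 4 comparisons with DMSO and between the DMSO libraries (columns). PSMB10 holds -1.20, -2.30 and -1.19 in 3 of the 4 treated libraries. The column of DMSO at 48 h against 24 h is below 0 for 40 of 46 genes, beside 5773 of 11490 over all genes tested.

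The outer core ring was split. Of its 7 genes, 3 were lower by 20% or more at 200 nM for 24 h, beside 20.3% of all genes tested. The median of the 7 was -0.05. PSMA1 was the lowest of them, at 115.91 FPKM in DMSO, 104.85 FPKM at 100 nM and 82.64 FPKM at 200 nM, a log2 difference of -0.48 at 200 nM. At 48 h it stood at 108.95 FPKM, 98.27 FPKM and 102.52 FPKM, so that only the 200 nM library of 24 h stood apart. PSMA5 was at the other end of the ring, with 28.06 FPKM, 28.47 FPKM and 29.86 FPKM at 24 h and 24.95 FPKM, 23.27 FPKM and 24.62 FPKM at 48 h. PSMA6 varied least of the 46 members tested, between 107 FPKM and 113 FPKM over the 6 libraries.

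In the inner core ring, the median log2 difference at 200 nM for 24 h was -0.25. Of its 7 genes, 3 were lower by 20% or more, beside 20.3% of all genes tested. These were the catalytic genes PSMB5 and PSMB6 and the structural gene PSMB2, whose log2 difference was -0.49. PSMB3, a structural subunit, stood at 119.05 FPKM, 122.70 FPKM and 129.70 FPKM at 24 h and at 109.59 FPKM, 104.19 FPKM and 104.27 FPKM at 48 h, and was the highest of the ring by log2 difference at 200 nM for 24 h, 0.12. In that comparison, subunits that occur in equal number in the particle thus differed in the sign of their mRNA difference. At 200 nM for 48 h the log2 difference of PSMB3 was -0.07. There, 6 of the 7 ring genes lay below DMSO and 1 above, beside 5675 below and 5947 above of 11665 genes tested.

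The activator genes, some of which are induced by interferon, differed from DMSO by less than 2-fold in every comparison. PSME1 and PSME2 encode the subunits of an activator ring that works with the immunoproteasome. PSME1 stood at 74.88 FPKM, 72.51 FPKM and 76.55 FPKM at 24 h and at 75.98 FPKM, 88.95 FPKM and 71.23 FPKM at 48 h. PSME2 stood at 72.21 FPKM, 65.62 FPKM and 69.83 FPKM at 24 h and at 57.38 FPKM, 67.68 FPKM and 47.60 FPKM at 48 h. Both were higher than DMSO at 100 nM for 48 h, by log2 differences of 0.22 and 0.23, whereas at 200 nM for 48 h the log2 differences were -0.09 and -0.26. From 100 nM to 200 nM at 48 h they were -0.32 and -0.50, so at 48 h both genes had the same signs as PSMB10. At 24 h they did not move with it: at 200 nM their log2 differences were 0.03 and -0.05, beside -2.30 for PSMB10.

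PSME3, which encodes a nuclear activator, stood at 103.47 FPKM, 88.10 FPKM and 78.69 FPKM at 24 h and at 68.52 FPKM, 66.33 FPKM and 65.45 FPKM at 48 h. Its log2 difference of -0.39 at 200 nM for 24 h was smaller than that of -0.59 between the DMSO libraries. PSME4, an activator that works in histone degradation, stood at 26.39 FPKM, 24.20 FPKM and 25.30 FPKM at 24 h and at 19.17 FPKM, 19.44 FPKM and 17.96 FPKM at 48 h. It was thus separated by time and not by treatment. PSMF1, an inhibitor of the core, stood at 38.38 FPKM, 36.38 FPKM and 40.76 FPKM at 24 h and at 38.78 FPKM, 43.03 FPKM and 39.79 FPKM at 48 h, with log2 differences between -0.08 and 0.15.

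Among the 7 assembly chaperones, 3 were lower by 20% or more at 200 nM for 24 h, beside 20.3% of all genes tested. Their median was -0.15. PSMG1, which pairs with PSMG2 to build the outer ring, stood at 56.73 FPKM, 42.25 FPKM and 35.23 FPKM at 24 h and at 36.01 FPKM, 33.25 FPKM and 28.89 FPKM at 48 h. The log2 difference from DMSO was -0.42 at 100 nM and -0.67 at 200 nM at 24 h, -0.11 and -0.31 at 48 h, and -0.64 between the DMSO libraries. It was therefore in falling order of dose at both times, but its level in DMSO at 48 h was close to that at 200 nM for 24 h. Its partner PSMG2 was above DMSO in all 4 comparisons, as given above.

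**Figure D4:**
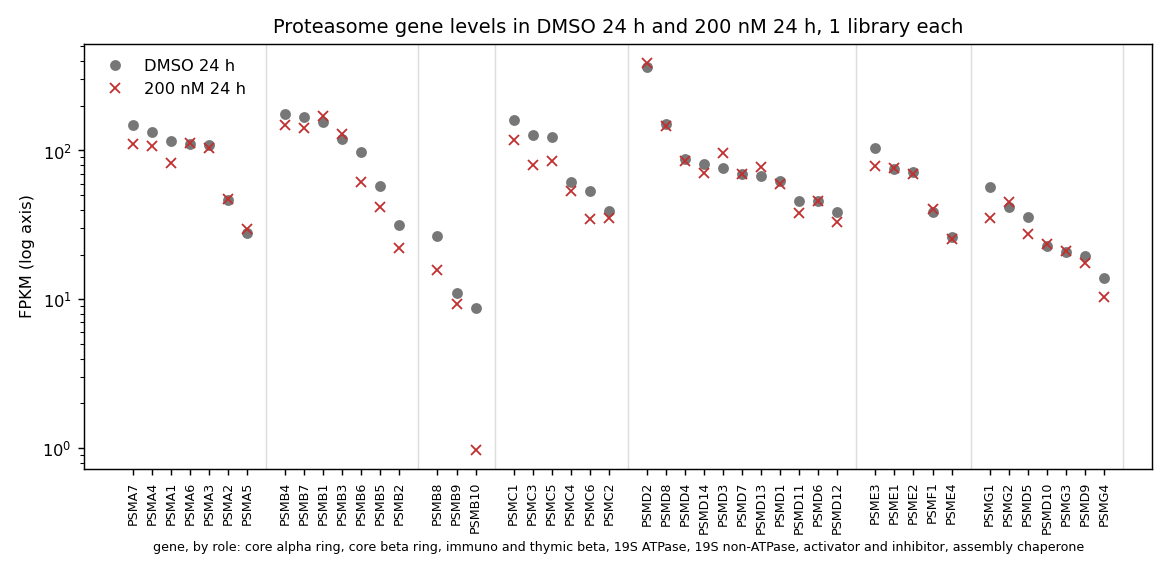
FPKM on a log axis of the 46 proteasome genes tested, grouped by role and ordered by level within a role, in DMSO at 24 h (grey circles) and at 200 nM for 24 h (red crosses), 1 library each. The immunoproteasome genes lie below the other core genes, from 8.72 to 26.83 FPKM in DMSO, and PSMB10 is the lowest cross, at 0.98 FPKM.

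The summed level of all 47 members was 3721 FPKM in DMSO, 3462 FPKM at 100 nM and 3316 FPKM at 200 nM at 24 h. At 48 h it was 3171 FPKM, 3111 FPKM and 2954 FPKM. Within each time the sum was in falling order of dose, but every library of 48 h was below every library of 24 h. For comparison, the 81 tested genes of cytosolic ribosomal proteins had a median log2 difference of -0.06 at 200 nM for 24 h and of 0.04 between the DMSO libraries. At 200 nM for 24 h, 7 of the 81 were lower by 20% and 2 higher by 25% or more, beside 20.3% and 24.6% of all genes tested. The 8 genes of the CCT chaperonin, which folds actin and tubulin, had a median of -0.20 at 200 nM for 24 h, with 1 lower by 20% or more. Between the DMSO libraries their median was -0.46 and 7 were lower by 20% or more, beside 12.4% of all genes tested.

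Genes that work with the proteasome were read from lists. Of 11 partner genes, 1 was lower by 20% or more at 200 nM for 24 h, beside 20.3% of all genes tested. None was higher by 25% or more, beside 24.6%, and the median was -0.11. POMP, the chaperone of the inner ring, stood at 54.96 FPKM, 55.63 FPKM and 51.87 FPKM at 24 h and at 46.99 FPKM, 47.27 FPKM and 50.26 FPKM at 48 h. ADRM1, a ubiquitin receptor of the cap, stood at 129.65 FPKM, 128.57 FPKM and 139.09 FPKM at 24 h and at 106.73 FPKM, 107.12 FPKM and 101.80 FPKM at 48 h. SEM1, the smallest cap subunit, stood at 80.29 FPKM, 98.82 FPKM and 87.42 FPKM at 24 h and at 87.14 FPKM, 68.78 FPKM and 86.29 FPKM at 48 h. The 1 lower partner was ECPAS, an adaptor that binds the cap and was named after its values were seen. It stood at 30.98 FPKM in DMSO, 22.99 FPKM at 100 nM and 15.28 FPKM at 200 nM at 24 h, and at 22.41 FPKM, 23.77 FPKM and 20.66 FPKM at 48 h.

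Of 7 genes that regulate transcription of the proteasome, 2 were lower by at least 20% and 1 was higher by at least 25% at 200 nM for 24 h. Over all genes tested the shares were 20.3% and 24.6%. NFE2L1, the factor that raises proteasome genes when the particle is inhibited, stood at 61.35 FPKM, 48.31 FPKM and 47.01 FPKM at 24 h, with log2 differences of -0.34 and -0.38. At 48 h it stood at 59.37 FPKM, 66.41 FPKM and 55.18 FPKM, so that all treated libraries but that at 100 nM for 48 h were below both DMSO libraries. MAFK, a small partner of that factor, stood at 5.82 FPKM, 8.98 FPKM and 13.92 FPKM at 24 h and was called higher at 200 nM, with a log2 difference of 1.13. At 48 h it stood at 9.56 FPKM, 9.38 FPKM and 11.01 FPKM, and its log2 difference between the DMSO libraries was 0.63.

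Ubiquitin genes with their activating enzymes (6 genes) and the shuttle and segregase genes (10 genes) had medians of -0.05 and -0.10 at 200 nM for 24 h. In each list 2 genes were lower by 20% and 1 higher by 25% or more, beside 20.3% and 24.6% of all genes tested. Of 9 genes of class I antigen processing, 4 were lower in this comparison, beside 20.3% of all genes tested, and none was higher, beside 24.6%. Their median was -0.24. The 4 were ERAP1 (log2 difference -0.91), ERAP2 (-0.51), TAP2 (-0.44) and TAPBP (-0.34). ERAP2 was near the limit of 1 FPKM, at 1.73 FPKM in DMSO and 0.92 FPKM at 200 nM. Above DMSO were 2 of the 9, among them TAP1, beside 5971 of 11660 over all genes tested. TAP1, the peptide transporter subunit, stood at 17.64 FPKM, 17.57 FPKM and 20.08 FPKM at 24 h and at 19.09 FPKM, 21.02 FPKM and 20.03 FPKM at 48 h. It was not lower at 200 nM at either time. TAP1 lies next to PSMB9 in the class II region of chromosome 6, and like PSMB8, PSMB9 and PSMB10 is known to be induced by interferon-gamma.

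Promoters were compared by sequence. The RefSeq table (GRCh38.p14, from 250 bases before to 50 after each start) held 41 of the 47 members among 27305 promoters. These promoters outnumber the 16623 genes listed and were not matched to the members by level or base composition. The response element (a pair of GAAA with any 2 bases between) was found in 6 of the 41 (14.6%), beside 3.65% of all promoters. It is shown for these 6 with 10 bases on each side and the match in capitals, since members that share it differed in their levels.
PSMB10, chr16:67936852-67936881: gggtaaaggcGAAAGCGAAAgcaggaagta
PSME2, chr14:24146619-24146648: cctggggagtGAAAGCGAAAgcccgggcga
PSMG4, chr6:3258904-3258933: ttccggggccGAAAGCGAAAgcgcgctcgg
PSME1, chr14:24136189-24136218: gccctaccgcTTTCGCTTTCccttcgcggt
PSMA4, chr15:78540155-78540184: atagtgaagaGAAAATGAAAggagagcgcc
PSMB4, chr1:151399495-151399524: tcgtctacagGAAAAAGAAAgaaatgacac

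All are written in the direction of the gene, which is the minus strand for PSMB10 and PSME2. PSMB10, PSME2 and PSMG4 share the same 10 letters, and PSME1 holds them on the other strand. Their log2 differences at 200 nM for 24 h were -2.30 for PSMB10, -0.05 for PSME2, -0.40 for PSMG4 and 0.03 for PSME1, so genes with the same letters differed. PSMA4 and PSMB4, with other letters at the open positions, had log2 differences of -0.32 and -0.23. A match is a description of the letters and not evidence of binding.

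Other motifs were searched on both strands in the same windows. TGACNNNGC, the antioxidant response element bound by NFE2L1 and its relatives, was found in 13 of 41 members (31.7%), beside 13.6% of all promoters. CCGGAAG, an ETS site, was found in 12 (29.3%), beside 10.7%. The GC box GGGCGG was found in 27 (65.9%), beside 44.6%, and CCAAT in 19 (46.3%), beside 35.7%. The gamma-activated site TTCNNNGAA and the TATA box TATAAA were each found in 4 (9.76%), beside 7.88% and 12.0%. The E-box CACGTG was found in 3, the NF-kappaB site (GGG and TTTCC with any 2 bases between) in 1 and the site of nuclear respiratory factor (GCGC on both sides of AT) in 1, beside 7.43%, 1.92% and 1.36%. The cAMP response element TGACGTCA and the heat shock element GAANNTTC were found in none, beside 1.98% and 6.87%. Of the 41 members, 14 were lower by 20% or more at 200 nM for 24 h, beside 20.3% of all genes tested. The lower members PSMA7 and PSMB6 had no promoter entry. Of the 14, 9 held GGGCGG, 6 CCAAT, 3 the interferon-stimulated response element, 3 CCGGAAG, 2 TGACNNNGC and 2 TATAAA. The gamma-activated site, the E-box and the nuclear respiratory factor site were each held by 1. None held the NF-kappaB site, the cAMP response element or the heat shock element. The share of each motif over all promoters is given above.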

How the data were processed

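RNA of 6 cultures was sequenced, and the authors deposited 1 table of FPKM per library. The submitters' processing notes name Bowtie2, RSEM and hg19, and versions are not given in the sources used here. FPKM values are scaled by library size and transcript length and written with 2 decimals. They hold no counts, so no count test was run and depth was estimated from the steps of single-exon genes. NCBI Gene IDs were paired with current symbols for 16585 of 16623 genes. Differences were log2((FPKM + 1) ratios), called at 2-fold with at least 1 FPKM in either library, and read against all genes tested. Values in every library are given for catalytic, activator and selected partner genes, for the highest and lowest gene of each role at 200 nM for 24 h, for genes called at 2-fold and for the 5 largest differences. Other genes named were chosen after their values were seen. Members and lists were chosen with earlier results of these data known. Alternatives were other pseudocounts, filters, folds, scalings and references. Transcript lengths came from GENCODE 29. No column of another sample was used. Python 3.11.15, numpy 2.4.6, pandas 2.3.3, scipy 1.17.1 and matplotlib 3.10.9 were used.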

Additional observations from a re-analysis of the deposited data

Results flagged for a closer look

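PSMB10 was lower than DMSO at 100 nM for 24 h and near the DMSO level at 100 nM for 48 h. Its log2 difference from DMSO was -1.20 at 24 h and 0.19 at 48 h, opposite in sign, and with 1 library per condition the difference between the times was not tested. The ratio at 48 h had a counting interval of 0.931 to 1.44, which includes 1, and against the DMSO library of 24 h the log2 difference was -0.056. Treatment and the culture or label of the single library at 100 nM for 48 h cannot be told apart. This is the single result picked out for a closer look.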

How the results depend on the processing

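Each condition has 1 library, so no replicate could be left out. No paired analysis was possible because the labels hold 1 culture per treatment and time. A median was taken to have moved when it changed by more than 0.1. A count was taken to have moved when it changed by over 1.5 times, or to or from 0. No member's difference that was called at 2-fold changed sign under any alternative run. Pseudocounts of 0.1 and 0.01 and no filter moved no count or median of the members at 2-fold. Requiring 10 FPKM in both libraries left 0 members lower at 100 nM for 24 h, at 200 nM for 24 h and 48 h, and in both steps from 100 nM to 200 nM, since PSMB10 is below that level. At 1.5-fold, 6 members were lower at 200 nM for 24 h, 3 between the DMSO libraries and 2 from 100 nM to 200 nM at 24 h, beside 7.62%, 1.95% and 2.15% of all genes. With limits of 20% lower and 25% higher, 5 were lower at 100 nM for 24 h, 16 lower and 1 higher at 200 nM for 24 h, 2 lower at 200 nM for 48 h, 11 lower between the DMSO libraries, and 5 (10.9%) and 2 (4.35%) lower from 100 nM to 200 nM at 24 h and 48 h, beside 10.9% and 10.2% of all genes. With the mean of both DMSO libraries as reference, the medians were 0.00 at 100 nM and -0.062 at 200 nM for 24 h and -0.14 at 100 nM for 48 h. Without the library at 100 nM for 48 h, 23 members were below and 3 above DMSO throughout, in place of 15 and 1. The number above DMSO throughout was 2 after median-of-ratios scaling and 3 as TPM. The following alternatives were chosen after seeing the data. With the limit of 20% lower, 1 member was lower at 200 nM for 48 h as TPM. With the mean of both DMSO libraries, 2 and 9 members were lower by 20% at 100 nM and 200 nM for 24 h, and 2 and 9 for 48 h, beside 4.61%, 15.7%, 5.95% and 9.14% of all genes. Against the DMSO of the other time, 1 and 6 were lower, beside 9.68% and 15.0% of all genes, and 3 and 4 higher, beside 8.07% and 15.8%, at 24 h, with medians of 0.12 and 0.042. At 48 h, 14 and 21 were lower, beside 14.0% and 18.4%, with medians of -0.26 and -0.29. Measured against DMSO, the small shared decrease at 24 h therefore depends on the DMSO library of 24 h, and the cause was not tested. The step from 100 nM to 200 nM at 24 h involves no DMSO library. In that step 30 of 46 members were lower and 16 higher by any amount, with a median of -0.10. Over all genes tested, 5900 of 11651 were lower and 5717 higher, with a median of -0.005. Levels under about 1 FPKM rest on some 20 fragments for a transcript as short as that of PSMB10.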
